A study of Mus musculus with 6 samples.

Results

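The mitochondrial ribosomal protein genes are the nuclear genes for the proteins of the mitoribosome, the ribosome inside mitochondria. They were taken as the protein-coding mouse genes named Mrpl or Mrps with a number and an optional letter, matched by Ensembl identifier to the GENCODE M21 annotation of GRCm38. The rule found 78 genes of the 55335 identifiers measured, 49 named Mrpl and 29 named Mrps, and it used no measured value. The genes lie on 17 chromosomes, with the most, 11, on chromosome 11. RNA was measured in 6 libraries of bEnd.3, an immortalised mouse brain endothelial line that the labels give as wild type. In 3 libraries the cells had been co-incubated for 24 h with mitochondria isolated from primary mouse astrocytes (mitochondria), and in 3 they had received the same volume of culture medium alone (control). The series concerns the transfer of mitochondria by astrocytes and what it does to the blood-brain barrier.

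Levels are in FPKM, fragments scaled to transcript length and library size, so they can be compared between genes. The values implied about 21800000 to 27200000 fragments in the mitochondria libraries and 17000000 to 21100000 fragments in the control libraries, so depth did not overlap between the groups. The labels do not state whether replicates are separate cultures, so the spread behind every p-value is that between these libraries and may be technical. Of 11 endothelial markers 4 were high enough to be tested. The defining markers Cdh5, Pecam1 and Cldn5 were at 0.0113 to 0.0685, 0.131 to 0.269 and 0 to 0.129 FPKM over the 6 libraries, so these markers were near 0 in cells labelled endothelial, while Eng was at 55.5 to 69.0 FPKM and Tie1 at 4.94 to 6.16 FPKM. The other tested markers, the VEGF receptors Flt1 and Kdr, were below every control in all mitochondria libraries. This held for 11.4% of all genes tested. Flt1 was at 7.94, 7.89 and 7.43 FPKM with mitochondria, against 9.33, 11.1 and 9.68 FPKM in controls (log2 change −0.33, limma adjusted p = 0.114). Kdr was at 3.10, 3.19 and 2.70 FPKM with mitochondria, against 3.65, 4.08 and 4.09 FPKM in controls (log2 change −0.31, limma adjusted p = 0.143). Neither passed the threshold. Of 9 astrocyte markers, Aqp4 and Sox9 were listed at 0 in every library, and Gfap was at most 0.198 FPKM. The list summed to 42.1 to 48.2 FPKM in mitochondria libraries and 26.5 to 63.3 FPKM in control libraries, where most of the sum was Gja1 in 2 of the 3 libraries, at 45.7 and 45.98 FPKM. Of the 3 tested, 1, Aldoc, was above every control in all mitochondria libraries (33.3%), against 9.62% of all genes tested. Slc1a2 and Aldh1l1 were also above every control but were not tested. Of the others, Gja1, S100b and Slc1a3 averaged lower with mitochondria and Gfap higher. With mitochondria Gja1 averaged 24.4 against 34.5 FPKM in controls, and S100b 0.944 against 1.001 FPKM. Slc1a3 averaged 0.0522 against 0.105 FPKM and Gfap 0.128 against 0.0771 FPKM in the same order. Slc1a2 was near 0 and not tested, at 0.169, 0.122 and 0.0744 FPKM with mitochondria, against 0.0128, 0.0618 and 0.0684 FPKM in controls. Aldh1l1 was at 0.972, 1.15 and 1.06 FPKM with mitochondria, against 0.416, 0.455 and 0.302 FPKM in controls. It reached 1 FPKM in only 2 libraries, too few to be tested. Aldoc was at 17.2, 16.02 and 20.4 FPKM with mitochondria, against 13.2, 13.3 and 16.00 FPKM in controls (log2 change 0.32, limma adjusted p = 0.268). The part of astrocyte RNA or of the endothelial markers in the values of the 78 genes was not tested.

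The mitoribosome makes the few membrane proteins of the respiratory chain that mitochondrial DNA encodes. Its rRNAs are transcribed inside mitochondria, while every one of its proteins is made on cytosolic ribosomes and imported. Some of these proteins have counterparts in the bacterial ribosome, and others were added in the course of mitochondrial evolution. Loss of mitoribosomal proteins in patients and in mice causes combined defects of the respiratory complexes.

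Promoters of nuclear genes for mitochondrial proteins are known for sites of NRF1, of ETS factors such as GABP, and of YY1, so these motifs were looked for in RefSeq promoter windows. A window held 250 bases before and 50 bases from the gene's start (GRCm38.p6), and 69 of the 78 genes had at least 1 window. The searched letters were GCGCATGCG for NRF1, CCGGAAGT for ETS factors and AAGATGGCG for YY1, on both strands, and matches to different motifs did not overlap. The NRF1 motif was in windows of 7 of the 69 genes (10.1%), against 4.39% of the 8934 tested genes with a window and 1.95% of all 27025 genes with one. The ETS motif was in 12 (17.4%), against 9.89% of tested genes and 4.31% of all. The YY1 motif was in 8 (11.6%), against 3.88% of tested genes and 1.64% of all. Of the 69 genes, 43 held none of the 3 motifs and 1, Mrps27, held more than 1 of them. The members' windows had a median GC content of 58.7%, and those of tested genes 61.0%. A match is a description of these letters and not a binding site. The stretches that follow show 1 NRF1 or YY1 match for every gene that holds one and the ETS matches of 3 genes of high level, since these motifs are the known promoter elements of such genes. Each has 30 bases on the gene's strand, 5′ to 3′, with the motif in capitals.
Mrpl9, NRF1, chr3:94443298-94443327, plus strand: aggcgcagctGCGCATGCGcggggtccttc
Mrpl10, NRF1 on the other strand, chr11:97041437-97041466, plus strand: cccagctccaCGCATGCGCatagcggccct
Mrpl17, NRF1, chr7:105811079-105811108, minus strand: ccgagttactGCGCATGCGtcctctgagac
Mrpl22, NRF1, chr11:58171621-58171650, plus strand: gcctcggactGCGCATGCGtatagtcagcc
Mrpl32, NRF1, chr13:14613105-14613134, minus strand: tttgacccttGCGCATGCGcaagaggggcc
Mrpl39, NRF1, chr16:84735350-84735379, minus strand: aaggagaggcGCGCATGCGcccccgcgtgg
Mrps18b, NRF1 on the other strand, chr17:35916645-35916674, minus strand: aacggcccgaCGCATGCGCactgggagcac
Mrpl35, YY1, chr6:71823742-71823771, minus strand: ggcaggctgcAAGATGGCGgcttccatctt
Mrpl36, YY1 on the other strand, chr13:73330968-73330997, plus strand: cgtgaccttaCGCCATCTTtcttcctggcg
Mrpl37, YY1, chr4:107066821-107066850, minus strand: tgcacgggcaAAGATGGCGgcgtccaggta
Mrpl42, YY1, chr10:95501903-95501932, minus strand: agattgaagcAAGATGGCGagcgcgcggtg
Mrps11, YY1 on the other strand, chr7:78783013-78783042, plus strand: ctacgggcgcCGCCATCTTtctgtcttccc
Mrps18a, YY1, chr17:46111005-46111034, plus strand: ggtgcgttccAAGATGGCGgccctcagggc
Mrps24, YY1, chr11:5707652-5707681, minus strand: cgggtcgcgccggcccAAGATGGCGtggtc
Mrps27, YY1, chr13:99344790-99344819, plus strand: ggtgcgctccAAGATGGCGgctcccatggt
Mrpl18, ETS, chr17:12916312-12916341, minus strand: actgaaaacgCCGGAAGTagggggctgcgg
Mrpl43, ETS, chr19:45006436-45006465, minus strand: caaccccggaaCCGGAAGTcaccggttagt
Mrpl27, ETS, chr11:94653725-94653754, plus strand: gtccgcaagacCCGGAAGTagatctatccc
The 7 genes with an NRF1 match lay between 3.14 FPKM (Mrpl32) and 54.1 FPKM (Mrpl10), and the 8 with a YY1 match between 8.27 FPKM (Mrpl37) and 28.7 FPKM (Mrpl36), as means over the 6 libraries. Genes with an ETS match had a median level of 22.0 FPKM over 2.04 to 49.9 FPKM, against 14.2 FPKM over 2.10 to 95.2 FPKM without one. The median log2 change with mitochondria was −0.01 for the 12 genes with an ETS match and −0.04 for the 57 without, −0.05 for the 7 genes with an NRF1 match and −0.03 for the 8 with a YY1 match. NRF1 and ETS matches were found at both high and low levels, YY1 matches at middle levels.

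All 78 genes were expressed, at 1 FPKM or more in every library, and all were tested. Mean levels over the 6 libraries had a median of 14.0 FPKM and ran from 2.04 FPKM for Mrpl48 to 95.2 FPKM for Mrps6. Of the 78 genes 28 averaged above 20 FPKM, 41 lay between 5 and 20 FPKM and 9 were under 5 FPKM. The plot of levels by library shows this range, with the points of both groups on top of each other for most genes.

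**Figure D1:**
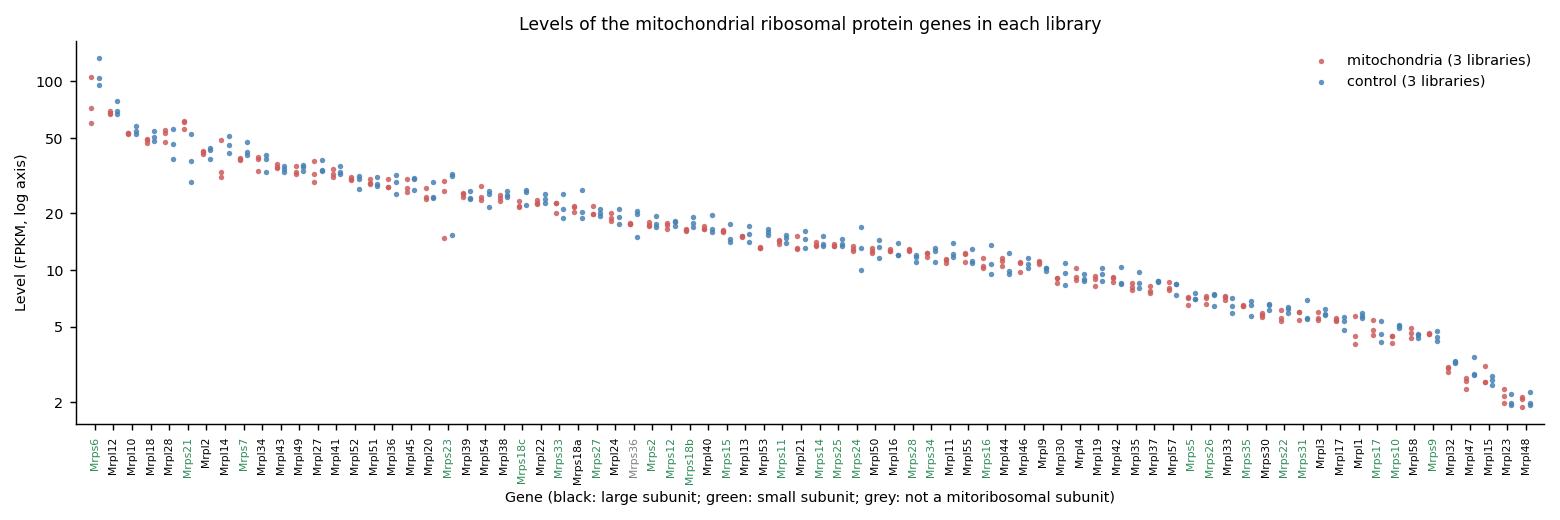
FPKM of the 78 mitochondrial ribosomal protein genes on a log axis, ordered by mean level, with 1 point per library for 3 mitochondria libraries (red) and 3 control libraries (blue). Levels run from about 2 FPKM (Mrpl48) to 132.9 FPKM (Mrps6 in control replicate 3), and Mrps6, Mrps21 and Mrps23 are the genes whose libraries span more than 2-fold.

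With mitochondria, none of the 78 genes changed past the threshold, and most were held within narrow limits. The limma fit over 12639 genes called 1.12% of all genes tested at an adjusted p under 0.05 (0.467% higher and 0.649% lower), and 0 of the 78 mitochondrial ribosomal protein genes in either direction. At an unadjusted p under 0.05 there were 7 of the 78 in limma (8.97%), 2 higher and 5 lower, against 13.9% of all genes tested. The libraries of the groups did not overlap for 12 of the 78 (15.4%), 3 higher and 9 lower, against 21% of all genes tested (9.62% higher and 11.4% lower). The smallest adjusted p was 0.0887 by limma. In bulk libraries a change in the share of cells and a change in RNA per cell cannot be told apart.

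The intervals show how large a change these data leave room for. The unadjusted 95% interval of the log2 change lay within 1.25-fold in either direction for 64 of the 78 genes (82.1%). This held for 57.1% of all genes tested and 60.2% of those whose mean level lies in the members' range. The latter had a median level of 8.71 FPKM, against 14.0 FPKM for the 78 genes. In related lists it held for 91.7% of complex I subunit genes, 86.7% of translation factors and 84.6% of protein genes of mitochondrial DNA. It held for 84.2% of tRNA charging genes, 70.4% of assembly factors and 62.5% of RNA processing genes. Of subunits with other names it held for 60.0%, and of cytosolic ribosomal protein genes for 57.1%. With a pseudocount of 0.1 in place of 1 the interval lay within 1.25-fold for 55 of the 78 (70.5%), against 43.4% of all genes tested. With the pseudocount of 1 the interval lay within 1.5-fold for 74 of the 78 (94.9%), against 89.0% of all genes tested. The genes whose intervals reached past 1.5-fold were Mrps6, Mrpl14, Mrps23 and Mrps21. Of the 78 ratios of group means, 76 were between 0.8 and 1.25 and 63 between 0.9 and 1.1. The median absolute log2 change was 0.05 for the 78 genes and 0.09 for all genes tested. Log2 changes are of FPKM + 1, so those of low genes come out too small. The median pooled SD within groups, on the same scale, was 0.09 for the 78 genes and 0.10 for all genes tested.

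**Figure D2:**
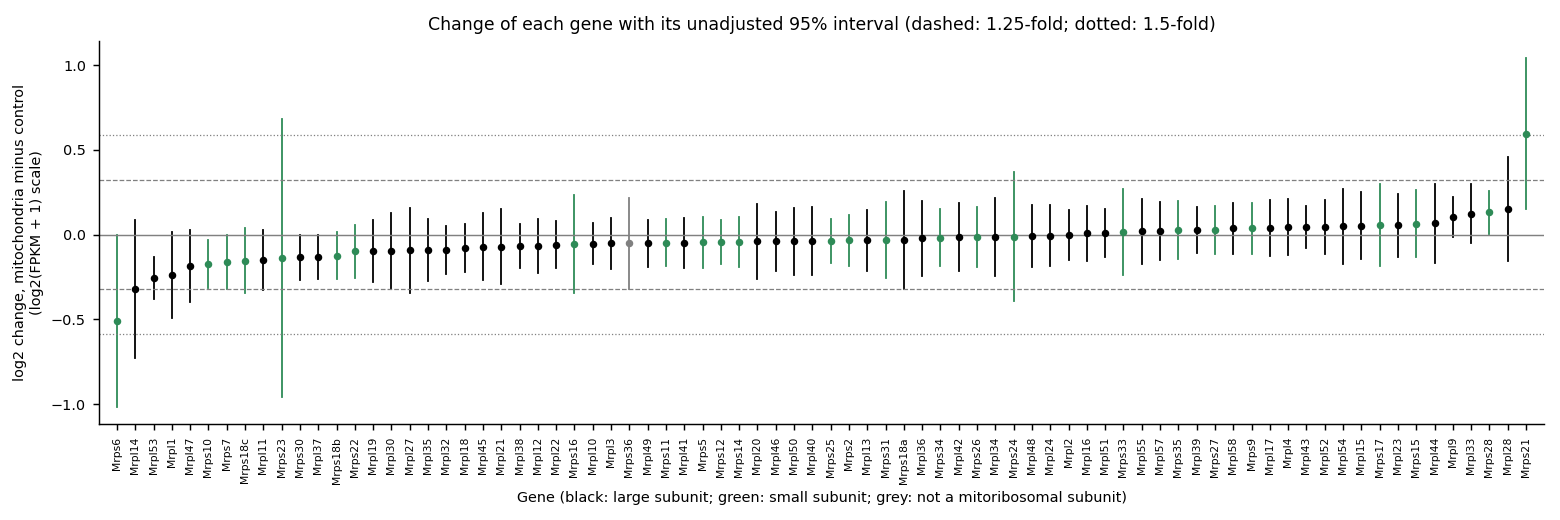
Log2 change (mitochondria minus control, log2(FPKM + 1) scale) of each of the 78 genes with its unadjusted 95% interval from limma, ordered by change, with dashed lines at 1.25-fold and dotted lines at 1.5-fold. Changes run from −0.51 (Mrps6) to 0.60 (Mrps21), and 64 intervals stay inside the dashed lines.

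The balance of directions changed when 1 control library was left out. Of the 78 log2 changes 53 were negative (67.9%), against 52.0% of all genes tested, with a median of −0.04 for the 78 and −0.01 for all. Control replicate 1, the shallowest library at about 17000000 fragments, held the highest value of the 6 libraries for 53 of the 78 genes. No other library was highest for more than 7. The median deviation of the 78 genes from their own means, on the log2 scale, was −0.02, −0.02 and −0.01 in mitochondria replicates 1, 2 and 3, against 0.11, −0.01 and −0.04 in control replicates 1, 2 and 3. Over all genes tested the median deviation in control replicate 1 was 0.02. This library also had the highest sum of the complex I subunit genes, 2007 FPKM against 1785 to 1856 FPKM in the others. The same held for sums of assembly factors, tRNA charging genes and RNA processing genes. It did not hold for translation factors, subunits with other names, cytosolic ribosomal protein genes or protein genes of mitochondrial DNA. On the log2 scale the median level of the 78 genes had a pooled within-group SD of 0.07 over libraries. Leaving out a control that was highest for most genes raises the log2 changes. Without control replicate 1, 34 of the 78 changes were negative and 44 positive, and the median turned to 0.03. The part of depth in this was not tested.

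Summed over the 78 genes, the mitochondria libraries held 1461, 1480 and 1518 FPKM, against 1622, 1485 and 1521 FPKM in the control libraries. The sums overlapped, and all 3 mitochondria libraries were below control replicate 1. The mean sum was 1486 ± 29.4 FPKM with mitochondria and 1543 ± 71.3 FPKM in controls (SD, n = 3 each), a ratio of 0.964.

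**Figure D3:**
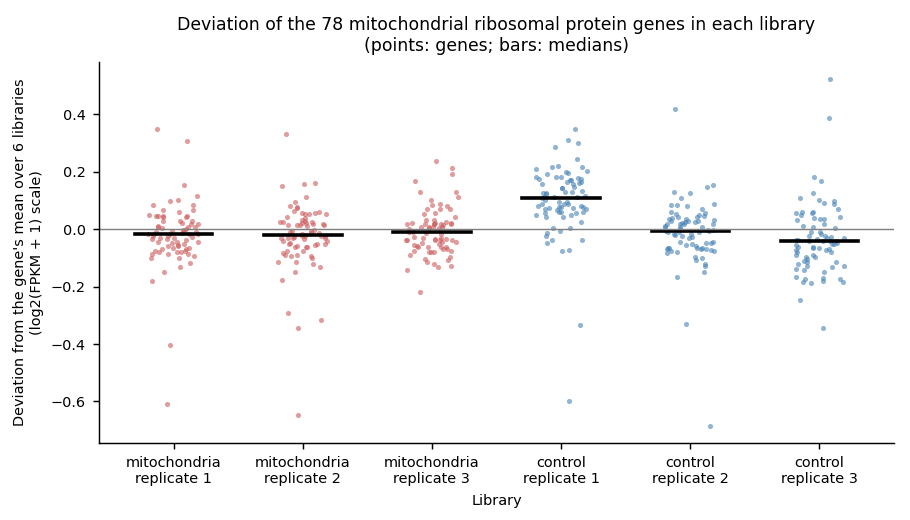
Deviation of each of the 78 genes from its own mean over the 6 libraries (log2(FPKM + 1) scale) in each library, with the median as a bar. The median of control replicate 1 is at 0.11, and those of the other 5 libraries lie between −0.04 and −0.01.

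The large subunit holds the catalytic centre for peptide bonds. Mrps30 and Mrps18a lie in it despite their names, so 51 of the 78 genes encode large subunit proteins and 26 small subunit proteins. The subunits had like levels, with medians of 14.2 FPKM for the large and 13.8 FPKM for the small subunit. The median log2 change was −0.04 for each. At an unadjusted p under 0.05 in limma there were 3 of 51 large subunit genes (5.88%) and 4 of 26 small subunit genes (15.4%), against 13.9% of all genes tested. The large subunit summed to 999.9 ± 11.5 FPKM with mitochondria and 1029 ± 60.4 FPKM in controls, and the small subunit to 468.8 ± 23.4 and 495.5 ± 26.7 FPKM in the same order (SD, n = 3 each).

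Mrpl53, a large subunit protein without a bacterial counterpart, had the smallest p of the 78 genes. Mrpl53 (ENSMUSG00000030037, GRCm38 chromosome 6, 83109040 to 83109939) was at 13.3, 13.1 and 13.2 FPKM with mitochondria, against 16.6, 15.9 and 15.3 FPKM in controls. Every mitochondria library was below every control library. The means were 13.2 ± 0.0771 FPKM with mitochondria and 15.9 ± 0.649 FPKM in controls, with the log2 change at −0.25 (SE 0.05) and a limma adjusted p of 0.0887, not past the threshold. Mrpl53 shares 87.97% of its exonic bases on the same strand with Gm42688, a protein-coding model that spans it, so reads can be assigned to either. Gm42688 was at 12.2, 12.5 and 11.3 FPKM with mitochondria, against 13.1, 12.7 and 11.8 FPKM in controls (log2 change −0.06, limma adjusted p = 0.761). The values of Gm42688 overlapped between the groups.

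Mrps21, a small subunit protein of the bacterial bS21 family, had the largest positive change. Mrps21 (GRCm38 chromosome 3, 95862634 to 95871519) was at 61.4, 60.7 and 55.8 FPKM with mitochondria, against 37.9, 29.5 and 52.5 FPKM in controls. All 3 mitochondria libraries were above the controls, which were themselves spread 1.78-fold. The means were 59.3 ± 3.03 FPKM with mitochondria and 39.9 ± 11.7 FPKM in controls, a log2 change of 0.60 (95% interval 0.15 to 1.04, limma adjusted p = 0.226). Without control replicate 3 the log2 change was 0.81 and the limma adjusted p 0.0474, which is the only call of a member in any setting tried. Of all words of 31 bases in Mrps21, 14.5% are shared with other genes, most with Gm6181.

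Mrps6, of the bacterial bS6 family, had the highest level and the largest negative change. Mrps6 (GRCm38 chromosome 16, 92058270 to 92112227) was at 60.1, 72.4 and 105.4 FPKM with mitochondria, against 104.7, 96.0 and 132.9 FPKM in controls. Mitochondria replicate 3 was above 2 of the controls, so the groups overlapped. The log2 change was −0.51 (SE 0.21, limma adjusted p = 0.357). It was −0.33 without mitochondria replicate 1 and −0.73 without mitochondria replicate 3, with limma adjusted p-values of 0.666 and 0.165. Mrps6 shares 19.9% of its exonic bases on the same strand with Gm49711 and 10.4% with Slc5a3, the sodium and myo-inositol cotransporter. Gm49711 was too low to be tested, at 0.441, 1.498 and 0.737 FPKM with mitochondria, against 0.776, 0.721 and 0.387 FPKM in controls. Slc5a3 was at 9.14, 8.49 and 16.2 FPKM with mitochondria, against 15.5, 17.4 and 25.4 FPKM in controls (log2 change −0.76, limma adjusted p = 0.272). Replicate 3 was the highest library of its group for Mrps6 and Slc5a3, in both groups.

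**Figure D4:**
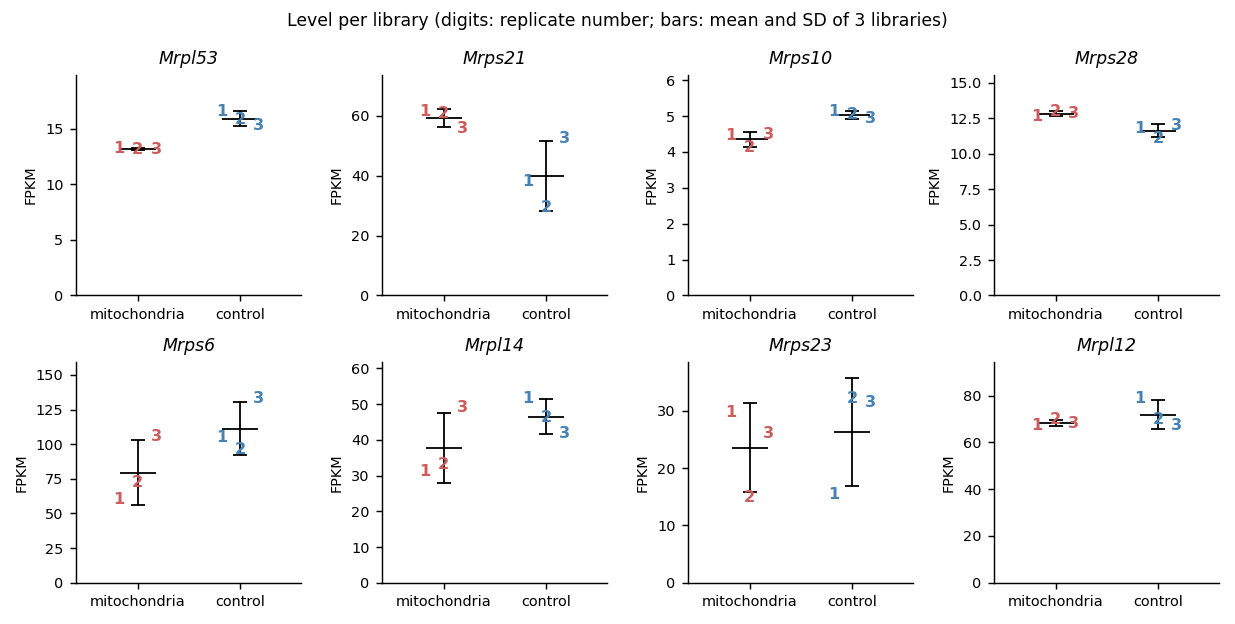
FPKM in each library (digits give the replicate number, bars the mean and SD of 3 libraries) for 8 genes, with mitochondria on the left and controls on the right of each panel. Groups are separate for Mrpl53, Mrps21, Mrps10 and Mrps28 and overlap for Mrps6, Mrpl14, Mrps23 and Mrpl12, and Mrps23 has 1 low library in each group.

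The other genes at an unadjusted p under 0.05 had smaller log2 changes. Mrps10, a small subunit protein that has a bacterial counterpart, was at 4.46, 4.12 and 4.48 FPKM with mitochondria, against 5.13, 5.04 and 4.92 FPKM in controls (log2 change −0.17, limma adjusted p = 0.266). Mrps28, also of the small subunit, was at 12.6, 13.0 and 12.8 FPKM with mitochondria, against 11.8, 11.1 and 11.99 FPKM in controls (log2 change 0.13, limma adjusted p = 0.338). Neither gene's libraries overlapped between the groups. Mrps30, which lies in the large subunit, was at 5.90, 5.68 and 5.78 FPKM with mitochondria, against 6.64, 6.17 and 6.55 FPKM in controls. Mrpl37, a large subunit protein without a bacterial counterpart, was at 8.21, 7.55 and 7.77 FPKM with mitochondria, against 8.71, 8.72 and 8.62 FPKM in controls. Both had a limma adjusted p of 0.357, with log2 changes of −0.13 for each, and all their mitochondria libraries were below their controls. Mrps10, Mrpl37, Mrps23, Mrps24, Mrps7, Mrps9, Mrps35, Mrpl11, Mrpl13, Mrpl32, Mrpl2 and Gatb, and the overlapping genes Slc5a3, Gm49711 and Gm42688, were chosen after their values were seen.

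Of the remaining genes whose groups were separate, Mrps7, Mrps18b, Mrpl47, Mrpl11 and Mrpl32 were lower and Mrpl9 was higher with mitochondria, none past the threshold. Mrps7, a core protein of the small subunit head, was at 38.6, 38.4 and 39.3 FPKM with mitochondria, against 47.8, 40.8 and 42.1 FPKM in controls. Mrpl9 was at 10.8, 11.0 and 11.1 FPKM with mitochondria, against 10.2, 9.96 and 10.2 FPKM in controls. Their log2 changes were −0.16 and 0.11, with limma adjusted p-values of 0.361 and 0.413. Mrpl47, of the uL29 family and among the lowest genes, was at 2.60, 2.34 and 2.70 FPKM with mitochondria, against 3.48, 2.83 and 2.80 FPKM in controls. Its limma adjusted p was 0.424.

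Of the other large changes in size, those of Mrpl14, Mrpl1, Mrpl28 and Mrpl33 came with groups that overlapped. Mrpl14 was at 31.05, 33.05 and 49.03 FPKM with mitochondria, against 51.5, 46.1 and 41.9 FPKM in controls (log2 change −0.32, limma adjusted p = 0.468). Mitochondria replicate 3 lay within the range of the controls. The log2 change of Mrpl14 was −0.52 without that library (limma adjusted p = 0.130) and −0.20 without mitochondria replicate 1 (limma adjusted p = 0.781). Mrpl1 averaged 4.74 ± 0.847 FPKM with mitochondria and 5.73 ± 0.204 FPKM in controls, and Mrpl28 52.1 ± 3.77 and 47.3 ± 8.55 FPKM in the same order (SD, n = 3 each). Mrpl33 was at 7.20, 6.99 and 7.29 FPKM with mitochondria, against 7.13, 6.45 and 5.93 FPKM in controls (log2 change 0.12, limma adjusted p = 0.512).

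Mrps23, a small subunit protein without a bacterial counterpart, split within both groups. It was at 29.7, 14.8 and 26.2 FPKM with mitochondria, against 15.4, 32.1 and 31.4 FPKM in controls. Mitochondria replicate 2 and control replicate 1 were far below the other libraries of their groups. Its 95% interval, −0.96 to 0.68 on the log2 scale, was the widest of the 78 genes. Mrps24 was at 12.6, 13.0 and 13.4 FPKM with mitochondria, against 16.9, 13.1 and 10.1 FPKM in controls, so the controls were the more spread group. In contrast Mrps9 varied little, at 4.57, 4.60 and 4.66 FPKM with mitochondria and 4.77, 4.44 and 4.20 FPKM in controls.

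Several genes with particular roles had overlapping values in the groups. Mrpl12, which in addition to its place in the ribosome binds the mitochondrial RNA polymerase, was at 67.2, 69.7 and 68.2 FPKM with mitochondria, against 78.7, 69.8 and 67.0 FPKM in controls (log2 change −0.07, 95% interval −0.23 to 0.09, limma adjusted p = 0.720). Mrps12, the counterpart of the bacterial protein at the decoding site, averaged 17.3 ± 0.646 FPKM with mitochondria and 17.8 ± 0.583 FPKM in controls. Mrpl58, a peptidyl-tRNA hydrolase built into the large subunit that frees stalled chains, averaged 4.66 ± 0.263 and 4.52 ± 0.117 FPKM in the same order. Mrps36 carries a ribosomal name but encodes a subunit of the 2-oxoglutarate dehydrogenase complex. It averaged 17.6 ± 0.119 FPKM with mitochondria and 18.5 ± 3.05 FPKM in controls (SD, n = 3 each). The limma adjusted p-values of Mrps12, Mrpl58 and Mrps36 were 0.777, 0.850 and 0.889.

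The Mrps18 genes are 3 paralogues whose proteins sit at different places of the ribosome. Mrps18a, in the large subunit, averaged 21.3 ± 0.863 FPKM with mitochondria and 22.0 ± 4.16 FPKM in controls. Mrps18b, in the small subunit, averaged 16.3 ± 0.250 FPKM with mitochondria and 17.9 ± 1.08 FPKM in controls, with no overlap. Mrps18c, the member at the place of the bacterial protein, averaged 22.3 ± 0.944 FPKM with mitochondria and 24.9 ± 2.53 FPKM in controls (SD, n = 3 each). Their limma adjusted p-values were 0.945, 0.407 and 0.460. All 3 averages were lower with mitochondria, and Mrps18a and Mrps18c overlapped between the groups.

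The remaining genes at the high and low ends of the range overlapped between the groups. Mrpl10, to which the stalk protein Mrpl12 is anchored, was at 53.0, 53.3 and 53.1 FPKM with mitochondria, against 57.8, 54.8 and 52.95 FPKM in controls. Mrpl18, which has a bacterial counterpart that binds an rRNA of the large subunit, was at 49.3, 49.1 and 47.1 FPKM with mitochondria, against 54.7, 50.8 and 48.4 FPKM in controls. Their 95% intervals on the log2 scale were −0.17 to 0.07 and −0.22 to 0.06. At the low end, Mrpl48 averaged 2.03 ± 0.127 FPKM with mitochondria and 2.06 ± 0.179 FPKM in controls, Mrpl23 2.16 ± 0.194 and 2.04 ± 0.141 FPKM, and Mrpl15 2.75 ± 0.324 and 2.60 ± 0.133 FPKM in the same order (SD, n = 3 each). With the pseudocount of 1 the interval of each of these 3 low genes stayed within 1.25-fold. With a pseudocount of 0.1 those of Mrpl23 (−0.19 to 0.34) and Mrpl15 (−0.19 to 0.33) reached past it.

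By origin, 46 of the genes were listed as having a bacterial counterpart and 31 as without one, with Mrps36 in neither class. Their median levels were 13.5 and 14.6 FPKM, and their median log2 changes −0.04 and −0.03. Intervals within 1.25-fold were found for 34 of the 46 and 29 of the 31. Of the genes whose intervals reached past 1.5-fold, Mrps6, Mrps21 and Mrpl14 have bacterial counterparts and Mrps23 has none. Mrpl2, whose protein lies near the catalytic centre, was at 41.4, 43.0 and 42.2 FPKM with mitochondria, against 44.6, 43.6 and 39.0 FPKM in controls. Mrpl13 was at 15.1, 15.1 and 15.2 FPKM with mitochondria, against 17.2, 15.5 and 14.0 FPKM in controls, and Mrps35 averaged 6.50 ± 0.0639 and 6.38 ± 0.566 FPKM in the same order (SD, n = 3 each). In Mrpl2, Mrpl13 and Mrps35 the mitochondria libraries lay inside the range of the controls.

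Reads of some members can be shared with other genes. Of the 78, 24 had no 31-base word in common with another annotated gene, 29 had more than 5% of their words in common and 7 more than 20%. The 7 were Mrpl53, Mrps34, Mrpl27, Mrps18c, Mrpl22, Mrpl41 and Mrps36. Exonic bases overlapped with another gene, on either strand, in 33 members and on the same strand in 8. The libraries were strand-specific per the labels, but no source used here says whether the counting used strand, so values of members with overlapping antisense genes are uncertain. Mrpl46 and Mrps11, themselves both members, overlap head to head over 173 exonic bases. Mrpl46 averaged 10.6 ± 0.730 FPKM with mitochondria and 10.9 ± 0.700 FPKM in controls, and Mrps11 14.2 ± 0.391 and 14.7 ± 0.782 FPKM in the same order (SD, n = 3 each).

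The mitoribosome also holds subunits whose genes have other names. None of the 5 listed here passed the threshold, against 1.12% of all genes tested. Their median log2 change was 0.08. Dap3, a GTP-binding protein of the small subunit, was at 9.28, 9.54 and 9.89 FPKM with mitochondria, against 10.4, 10.6 and 9.55 FPKM in controls. Gadd45gip1, which lies near the exit of the peptide tunnel, was at 13.7, 13.7 and 13.0 FPKM with mitochondria, against 12.3, 12.6 and 13.2 FPKM in controls. Both genes overlapped between the groups. Ptcd3, Chchd1 and Aurkaip1, all of the small subunit, had log2 changes of −0.03, 0.09 and 0.11. The limma adjusted p-values of the 5 genes lay between 0.586 and 0.886.

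The genes that build, feed and use the mitoribosome had 0 calls as well, against 1.12% of all genes tested. Assembly factors (27 tested) had a median log2 change of −0.04. At an unadjusted p under 0.05 in limma there was 1 gene (3.7%), against 13.9% of all genes tested. This was Noa1, a GTPase needed for the small subunit, at 3.75, 4.15 and 4.63 FPKM with mitochondria, against 4.77, 4.88 and 5.44 FPKM in controls (log2 change −0.22, limma adjusted p = 0.317). Translation factors (15 tested) had a median of −0.01 and 1 such gene (6.67%). This was Metap1d, a mitochondrial methionine aminopeptidase, with a log2 change of 0.18 (limma adjusted p = 0.358). Of 22 genes for charging mitochondrial tRNAs 19 were tested, with a median of −0.02. The smallest p was that of Gars, the glycyl-tRNA synthetase of both cytosol and mitochondria, at 53.3, 51.7 and 50.3 FPKM with mitochondria, against 60.5, 56.8 and 55.6 FPKM in controls (limma adjusted p = 0.272). Gatb, a subunit of the amidotransferase that makes glutaminyl-tRNA, was the other below 0.05, with a log2 change of 0.22. Gars and Gatb were 10.5% of the 19 tested. Genes of mitochondrial transcription and RNA processing (24 tested) had a median of −0.04 and 18 of 24 negative changes (75%), against 52.0% of all genes tested. Their sum was highest in control replicate 1, at 223.5 FPKM, against 206.8 to 216.9 FPKM in the other libraries. The part of that library in these directions was not tested. Of the 24 genes, 4 (16.7%) had an unadjusted p under 0.05 in limma, 1 higher and 3 lower, against 13.9% of all genes tested. Tbrg4, an RNA-binding FASTK family protein, had the smallest p, at 6.09, 5.78 and 5.46 FPKM with mitochondria, against 7.18, 7.38 and 6.32 FPKM in controls (log2 change −0.23, limma adjusted p = 0.239). The higher one was Hsd17b10, a subunit of mitochondrial RNase P, at 47.3, 48.3 and 42.3 FPKM with mitochondria, against 42.6, 34.1 and 35.3 FPKM in controls (log2 change 0.30, limma adjusted p = 0.239). It was chosen after its values were seen, and its groups overlapped by 1 library.

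Other ribosomal and mitochondrial lists also had 0 calls in limma and lay on different sides of 0. The median of the 78 genes was −0.04 with all libraries and 0.03 without control replicate 1. The 77 cytosolic ribosomal protein genes had a median log2 change of 0.13, and 10.4% of the changes were negative, against 52.0% of all genes tested. At an unadjusted p under 0.05 in limma there were 16 of the 77 (20.8%), against 13.9% of all genes tested. Summed, the 77 were at 12560, 11290 and 10740 FPKM in control replicates 1, 2 and 3, against 12370 to 12590 FPKM with mitochondria. The 36 complex I subunit genes had a median of 0.00 and 47.2% negative changes, with 1 (2.78%) at an unadjusted p under 0.05. The 13 protein genes of mitochondrial DNA, whose mRNAs the mitoribosome translates, had a median of 0.08, 7.69% negative changes and 0 at an unadjusted p under 0.05. For these 13, RNA of the added mitochondria and of the cells' own mitochondria cannot be told apart. The difference between these lists and the mitochondrial ribosomal protein genes was not tested.

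**Figure D5:**
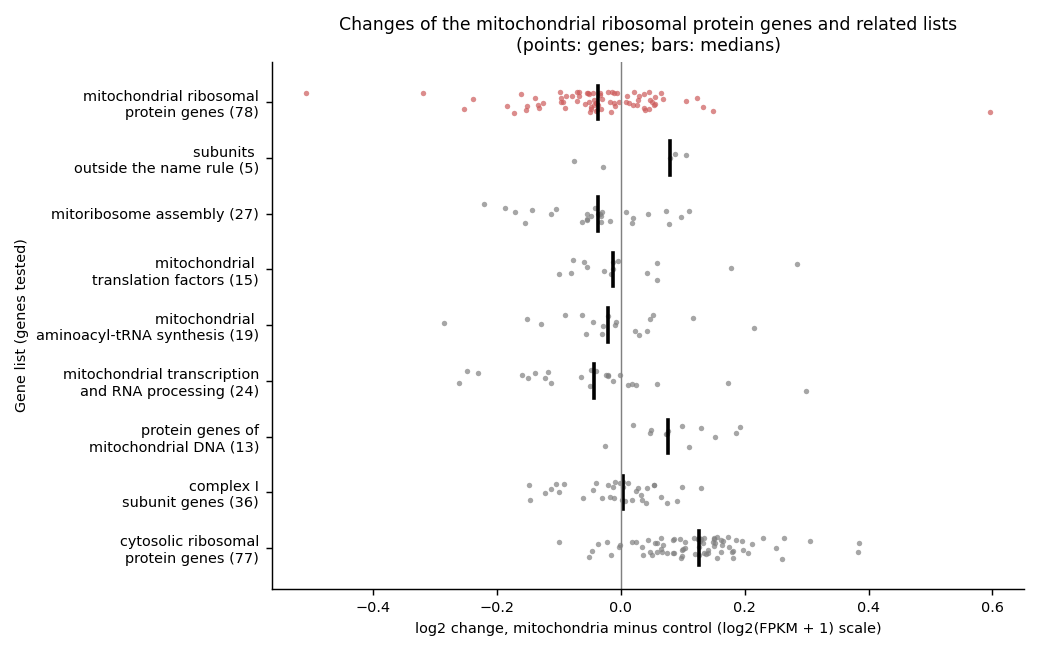
Log2 change (mitochondria minus control, log2(FPKM + 1) scale) of each tested gene of 9 lists, with the median as a bar. The median of the mitochondrial ribosomal protein genes is at −0.04, those of the lists for assembly, translation, tRNA charging and RNA processing lie between −0.04 and −0.01, and that of the cytosolic ribosomal protein genes is at 0.13.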

How the data were processed

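Each of the 6 libraries has 1 deposited column over 55335 mouse gene identifiers. These deposited values were taken to be FPKM because of their steps in low genes and their library sums of 281433 to 297838; the headers name no unit. The authors' tools, per the submitters' processing notes, include StringTie 1.3.1c, STAR 2.5.3a and FastQC 0.11.5, with the build GRCm38, and their settings are not given. Depth was estimated from the value of 1 fragment in genes with a single transcript.

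The groups were compared by limma (version 3.58.1, R 4.3.3) after adding a pseudocount of 1 to the FPKM and taking log2, using trend and robust empirical Bayes and no covariate. Testing needed 1 FPKM in 3 or more libraries, which left 12639 genes. P-values are two-sided, adjusted over all these genes by Benjamini-Hochberg, and called under 0.05. All log2 changes are of mitochondria over control. The code was tested on simulated data.

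The genes named were the 5 largest changes in each direction, the 6 highest and 4 lowest levels, listed roles, and the smallest p of each other list. The members, lists, motifs and rule were chosen with earlier results of these data known. Alternatives changed the pseudocount, filter, scaling, variance model, replicate block and libraries.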

Additional observations from a re-analysis of the deposited data

How the results depend on the processing

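Under 16 alternative settings, 0 of the 78 genes (69 with a filter on a mean of 5 FPKM) were called in 15, and without control replicate 3 there was 1 call, Mrps21 (0 to 1 over the omissions of a library). The smallest limma adjusted p among the members lay between 0.0474 and 0.302 over these settings. The members' median log2 change lay between −0.07 and 0.03 and was positive only without control replicate 1, and 2 to 9 members had an unadjusted p under 0.05. Of 1239 member values under alternatives 76 had the other sign, and 44 of the 78 members kept their sign in every setting. Intervals within 1.25-fold numbered 48 to 68 over the settings, against 64 as reported; the fewest came without mitochondria replicate 1. Calls over all genes numbered 141. There were 13 with no filter and 56 with the replicate block, and over the omissions of a library they lay between 14 and 88: 14, 16 and 28 without mitochondria replicates 1, 2 and 3, and 84, 22 and 88 without control replicates 1, 2 and 3. The causes were not tested. Same-numbered libraries deviated together with correlations of 0.10, 0.05 and 0.30, against −0.20 to 0.12 between libraries of different number. The replicate 3 libraries had the highest correlation, so these values do not settle whether the numbers pair the samples. The main fit did not pair them. Depth is known only from the FPKM, and 3 libraries a group limit precision.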

Other observations

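Nsun4, an rRNA methyltransferase that acts in mitoribosome assembly, was named because of its values. It was at 4.36, 2.41 and 4.46 FPKM with mitochondria, against 4.05, 2.36 and 4.69 FPKM in controls. Replicate 2 was the low library in both groups, while the group means differed by a log2 change of 0.02 (limma adjusted p = 0.988). Slirp, which stabilises mitochondrial mRNAs, was at 5.31, 4.99 and 5.19 FPKM with mitochondria, against 6.08, 5.33 and 8.02 FPKM in controls, and was also named because of its values. Its groups were separate, and its limma adjusted p was 0.423.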
